A study of Mus musculus with 32 samples.

Results

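The genes described here are 35 genes of excision, interstrand crosslink and translesion repair, measured in the kidneys of mice given cisplatin, out of 54532 genes in the count table. They were chosen by name from what is known of these pathways and not by their level, although earlier results of these data were known. All 35 were found in the table. The kidneys came from C57BL/6 wild type mice of 6 to 8 weeks, and each library held total kidney RNA of 1 replicate, called a mouse below. The study's methods call the 4 replicates of each sex and day biological replicates. There were 8 groups of 4 mice, 1 for each sex on Day 0 and on 3 later days (Day 2, Day 3 and Day 5). The mice of Day 2, Day 3 and Day 5 had received a single intraperitoneal dose of 20 mg/kg cisplatin. The Day 0 mice are called healthy by the study, although the sample labels give the Day 0 females a cisplatin treatment and the Day 0 males none. The comparisons asked how these genes changed with time after the drug in each sex, and whether males and females differed.

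Cisplatin binds neighbouring purines of DNA and makes intrastrand and interstrand crosslinks, both of which block polymerases. Nucleotide excision repair removes intrastrand crosslinks: Xpc and the Ddb1-Ddb2 complex find the damage anywhere in the genome, stalled RNA polymerase recruits Ercc6, Ercc8 and Uvssa in transcribed genes, the TFIIH helicases Ercc2 and Ercc3 open the helix, Xpa verifies the lesion, and the nucleases Ercc1-Ercc4 and Ercc5 cut on either side. The Fanconi anemia proteins unhook interstrand crosslinks during replication, with Slx4 as the platform for the nucleases and the Brca proteins, Palb2 and Rad51c for the recombination that follows. Translesion polymerases copy past what is left: Rev1 acts as scaffold and deoxycytidyl transferase, Rev3l and Mad2l2 form polymerase zeta, and Polh and Polk insert bases opposite damaged templates. Most tubule cells of the adult kidney do not divide, and they concentrate cisplatin from the blood.

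The libraries held 16502107 to 35961325 counts, and genes of the mitochondrial genome took 4.49% to 24.0% of them on Day 0 but up to 79.8% on Day 5. Libraries also differed in how their counts were spread over long and short genes. This was measured as the median log2 deviation of 2492 protein-coding genes with at least 8 kb of exon minus that of 2213 genes with at most 2 kb, members left out. The value ran from -1.04 to -0.07 in the males of Day 0 and from 0.12 to 0.64 in the males of Day 2 and Day 3, and it was -1.20, -1.12 and -0.82 in 3 Day 0 females but 0.32 in the Day 0 female mouse 4. The library labelled male Day 5 mouse 1 held 4153 Xist counts, against 59 to 260 in the other Day 5 males, beside 387 counts of Y-linked genes, so male Day 5 results are also given without it. The Day 0 females held 5 to 221 Y-linked counts, 66 of them in mouse 4, and the other 12 females 0, and male Day 0 mouse 4 held 242 Xist counts. All 8 kidney markers were detected in every library, with summed levels of 2206 to 10336 CPM (counts relative to the library total, after scaling by the trimmed mean of M values). Their sum was 7064 to 9812 CPM in males and 7974 to 8806 CPM in females on Day 0, and 2206 to 5811 CPM and 3782 to 7042 CPM on Day 5. Over both sexes the podocyte gene Nphs1 rose on Day 2 and Day 3 and Slc12a1 rose on Day 3, while the tubule genes Slc34a1 and Slc12a3 fell on Day 3 and Slc34a1 and Lrp2 on Day 5. The summed level of 4 adrenal cortex markers ran from 0.73 to 1572 CPM and that of 8 leukocyte markers from 21 to 327 CPM, highest in Day 5 males for leukocytes and in females of Day 3 and Day 5 for adrenal cortex. Of the adrenal cortex markers, Cyp11b1, Cyp11a1 and Cyp21a1 were at 0 in 5, 2 and 5 libraries, and Star was detected in every library. Of the leukocyte markers, Itgam, Cd3e and Cd79a were at 0 in 2, 5 and 1 libraries. Ptprc, Cd68, Lyz2, S100a8 and S100a9 were detected in every library. Over both sexes, all 3 erythroid markers and 5 of 6 adipocyte markers fell on Day 2 and on Day 3, as did Cela1, the 1 exocrine pancreas marker tested of 4, where the other 3 were at 0 in 21 to 27 libraries. The summed erythroid level ran from 391 to 1932 CPM in Day 0 males and from 0.81 to 2.13 CPM in Day 3 males, and from 365 to 2402 CPM and 2.85 to 72.7 CPM in females of the same days. The summed adipocyte level ran from 486 to 2550 CPM in Day 0 males and from 240 to 317 CPM in Day 3 males. The part of all these cells in the results was not tested.

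Cdkn1a, Mdm2 and Ccng1, all direct targets of p53, rose on Day 2, Day 3 and Day 5 when the sexes were analysed together, and Cdkn1a rose most, with a log2 fold change of 3.82 ± 0.53 (SE) on Day 2 (adjusted p = 0.000515). The summed level of these 3 genes was 140 to 227 CPM on Day 0. On Day 3 it was 626 to 871 CPM in males and 210 to 1246 CPM in females, where female mouse 2 was the lowest. Male Day 2 mouse 1 and male Day 5 mice 2 and 4 were also low, with 266, 266 and 177 CPM, so these 4 treated mice lay at or near the Day 0 levels of the damage genes.

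Abundance is compared between genes in the deposited FPKM, which take account of gene length. The damage-binding subunit Ddb1 stood far above the rest, with 49.9 ± 4.44 FPKM in Day 0 males and 57.1 ± 6.37 FPKM in Day 0 females (SD, n = 4). Rad23b, the partner of Xpc, followed with 12.8 ± 1.68 and 9.14 ± 2.19 FPKM. Next came Ercc3, Parp1, Xpc and Xpa, with medians over the 32 libraries of 7.54, 7.08, 6.99 and 6.74 FPKM, and these 4 neighbours were not separated beyond their spread. The recombination genes and the Fanconi ID pair closed the order: Brca2, Palb2, Brca1, Fancd2 and Fanci had medians of 0.19, 0.15, 0.062, 0.046 and 0.026 FPKM, and each was listed at 0 in at least 1 library. Fanci had 0 to 25 counts per library and passed the filter on low counts in none of the comparisons with Day 0, and Fancd2 and Brca1 passed it in only some.

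**Figure D1:**
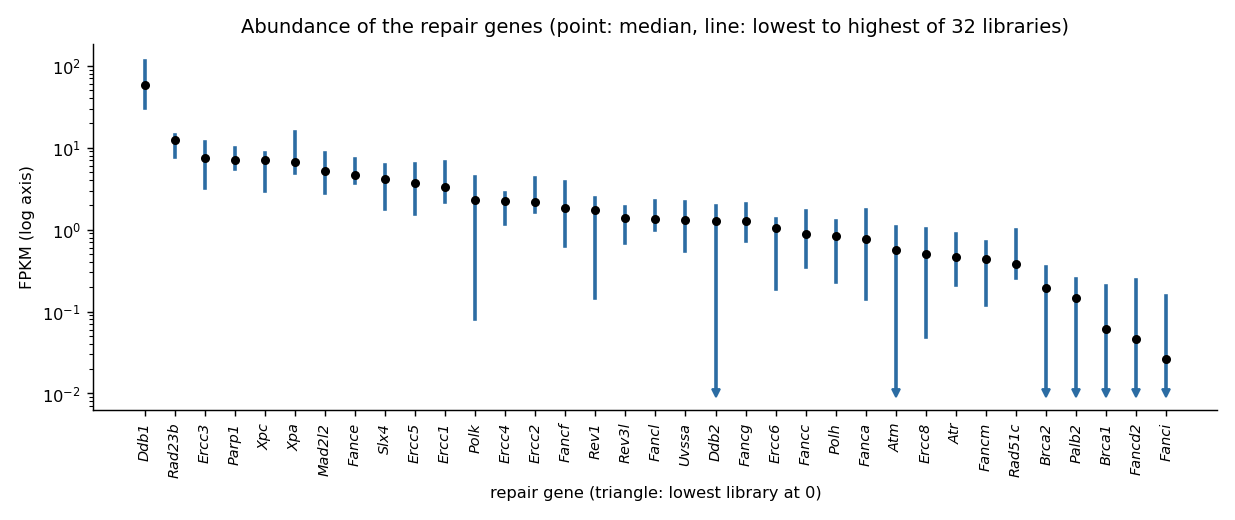
FPKM of each repair gene on a log axis, with the median as a point and the range over the 32 libraries as a line. A triangle marks a gene listed at 0 in at least 1 library. Ddb1 has a median of 58.9 FPKM and Fanci of 0.026 FPKM.

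In males, 1 of the 34 members tested rose on Day 2, 10 of 34 on Day 3 and 3 of 32 on Day 5, and none fell (edgeR quasi-likelihood test with Benjamini-Hochberg adjustment over all genes tested). Unless another fit is named, a gene is said to pass, or not to pass, by this test with all mice of the groups compared and no others. Of all genes tested, 1.81%, 11.4% and 8.98% rose and 1.35%, 13.1% and 10.2% fell in the same comparisons. The 10 genes of male Day 3 were Uvssa, Atr, Fanca, Rev3l, Polk, Ercc5, Rev1, Slx4, Ddb1 and Ercc6. By role, 1 of 4 recognition, 2 of 3 transcription-coupled and 1 of 3 incision genes passed. So did 1 of 7 Fanconi core genes, 3 of 5 translesion genes, Slx4 and Atr. Of the 3 TFIIH and verification genes and the 4 recombination genes tested, 0 passed. Fanca was called on all 3 days, and Uvssa and Ercc5 on Day 3 and Day 5. Without the library labelled male Day 5 mouse 1, the same 3 genes Fanca, Uvssa and Ercc5 passed on Day 5, beside 26% of all genes in either direction. Genes of the mitochondrial genome took 42.5% of the counts of that library and 78.9% to 79.8% in the other 3 Day 5 males, so the Day 5 result without it rests on those 3 libraries. With these genes left out of the counts and all mice kept, Fanca, Uvssa and Ercc5 passed on Day 5, beside 18.3% of all genes in either direction. Any further part of this share was not tested. Single mice moved these counts and those of all genes together. Without male Day 0 mouse 3 the members called were 6, 13 and 4, all higher, beside 14%, 38.6% and 19.9% of all genes in either direction. Without 1 of the Day 3 males 1, 2 or 3 the Day 3 count was 5, beside 4.18% to 6.56% of all genes. Without 1 of the Day 0 males 1 or 2, or of the Day 5 males 2 or 3, the Day 5 count was 1, beside 5.38% to 6.77% of all genes.

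In females, 0 of 33, 0 of 33 and 0 of 32 members passed on Day 2, Day 3 and Day 5, against 1.93%, 5.54% and 0.258% of all genes in either direction by the same edgeR test. At an unadjusted p under 0.05 the counts of members were 10, 11 and 6, beside 25.3%, 30.7% and 15.7% of all genes, and DESeq2's Wald test called 4, 8 and 0, beside 12.9%, 21.2% and 4.56% of all genes. These counts changed with the fit and with female Day 0 mouse 4. With 1 fit over all 8 groups and every mouse kept they were 10, 10 and 3, beside 21.8%, 23.4% and 10.9% of all genes. Without female Day 0 mouse 4, 12, 15 and 4 members passed on the 3 days, beside 28.3%, 39.1% and 12.6% of all genes. All were higher than on Day 0 but Fancc, which was lower on Day 2 and Day 3, and Polk, Rev1, Ercc5 and Slx4 passed on each day. The median log2 fold change of the members tested was 0.40, 0.33 and 0.23 in males and 0.45, 0.40 and 0.33 in females on Day 2, Day 3 and Day 5, where that of all genes tested lay between 0.025 and 0.039. Among protein-coding genes with at least 8 kb of exon, members left out, it was 0.35, 0.44 and 0.22 in males. In females that median was 0.28, 0.34 and 0.15. With offsets for the trend with exon length, described below, the median of the members was 0.15, 0.24 and 0.18 in males. In females it was then 0.28, 0.27 and 0.21.

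To use all 16 mice of a day and Day 0, males and females were also fitted together with sex as a term, a comparison added after seeing the data. Of the 34 members tested, 8 rose and 1 fell on Day 2, 12 rose and 1 fell on Day 3, and 4 rose and 0 fell on Day 5. The shares of all genes that rose were 11.3%, 16.5% and 7.6%, and 16.5%, 22.6% and 11% fell. Ercc5, Fanca, Polk and Rev1 rose on all 3 days. Xpc, Slx4, Ercc6 and Polh rose on Day 2 and Day 3, Rev3l, Atr, Uvssa and Fancm on Day 3, and Xpa fell on Day 2 and Day 3. Under the study's own cut, which also asks for an absolute log2 fold change over 1.5, only Rev1 and Polk remained on Day 2 and Day 3 and only Rev1 on Day 5, beside 4.87%, 6.46% and 3.55% of all genes, and male Day 3 kept Polk and Rev1, beside 3.72% of all genes. In males Fanca passed this cut on Day 2 and Day 5, beside 0.716% and 7.53% of all genes. With 1 mouse left out, the male Day 3 calls of Rev1 and Ercc5 at any fold change were lost in 5 and 3 of 8 fits. Without female Day 0 mouse 4 the members called were 15, 16 and 7, beside 37.4%, 47.9% and 26.7% of all genes, and without female Day 2 mouse 2 the Day 2 count was 6, beside 21.2%. The 3 days share the Day 0 mice, so they are not independent of each other. In kidney tissue, more RNA per cell and a larger share of the cells that express a gene cannot be told apart.

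**Figure D2:**
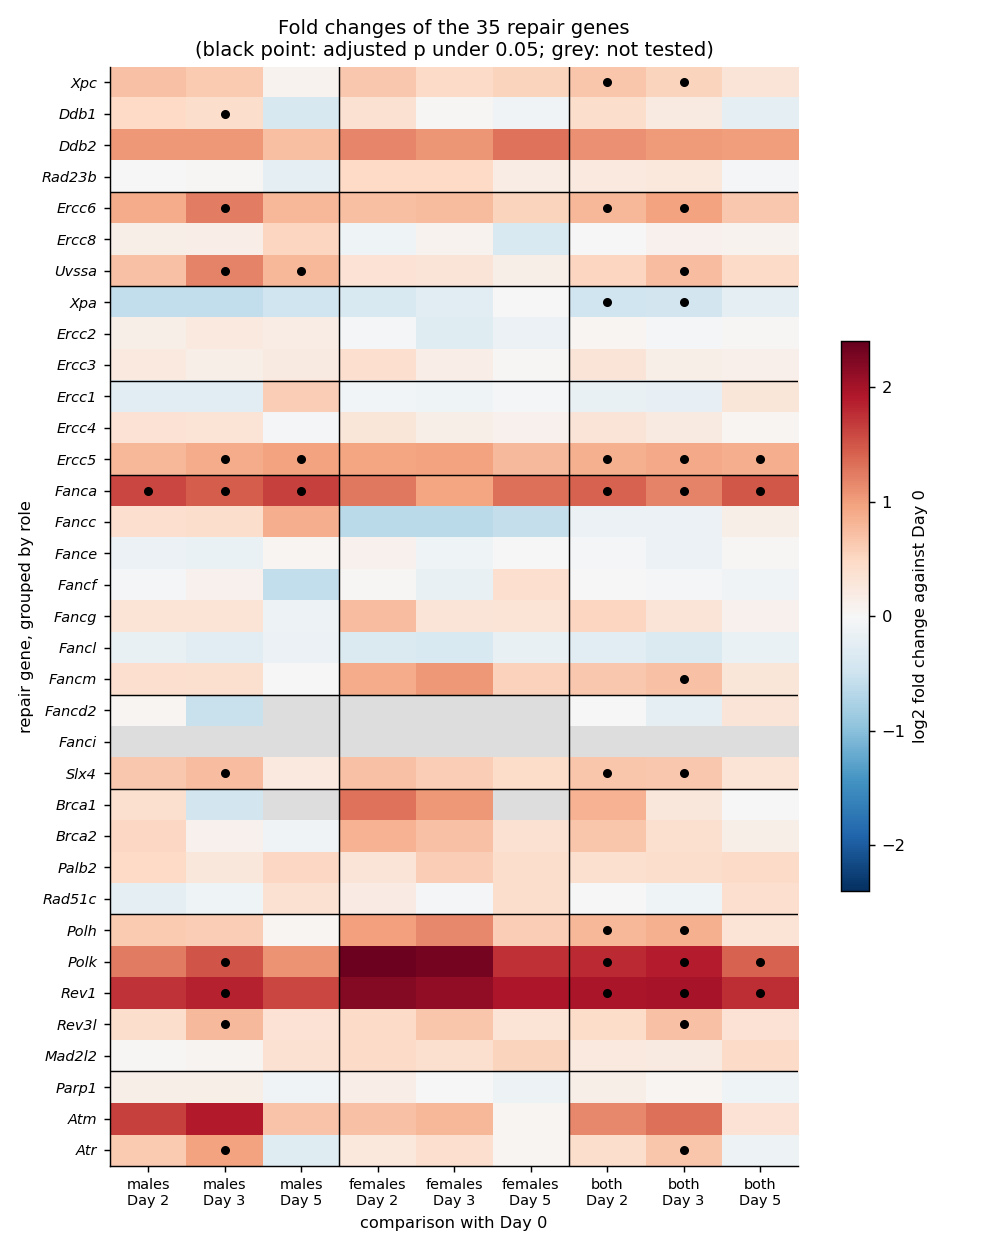
Log2 fold change against Day 0 of the 35 repair genes, in rows grouped by role from lesion recognition at the top to the damage kinases at the bottom, in males, females and both sexes together. Black points mark an adjusted p under 0.05 and grey cells a gene that was not tested. Rev1, Polk, Fanca and Ercc5 are red in all 9 columns, and Xpa is blue on Day 2 and Day 3.

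The promoters shown are those of the 4 genes that were called higher on all 3 days over both sexes. With 1 mouse left out, the Day 5 call of Polk was lost in 4 of 16 fits. Those of Ercc5, Fanca and Rev1 were kept in all 16. Each run is 300 bases of the RefSeq sequence on the GRCm38.p6 build, from 250 bases before the transcription start to 50 after it. Capitals mark matches, on either strand, to the CCAAT box (CCAAT), the GC box (GGGCGG) and, in Fanca, the p53 half-site. The genes lie on chromosome 1 from 44147744 to 44181260 (Ercc5), chromosome 8 from 123268300 to 123318576 (Fanca), chromosome 13 from 96480690 to 96542579 (Polk) and chromosome 1 from 38052786 to 38129801 (Rev1) in the deposited coordinates. The windows lie at chr1:44147494-44147793 on the plus strand for Ercc5, and on the minus strand at chr8:123318527-123318826 for Fanca, chr13:96542530-96542829 for Polk and chr1:38129617-38129916 for Rev1.
Ercc5: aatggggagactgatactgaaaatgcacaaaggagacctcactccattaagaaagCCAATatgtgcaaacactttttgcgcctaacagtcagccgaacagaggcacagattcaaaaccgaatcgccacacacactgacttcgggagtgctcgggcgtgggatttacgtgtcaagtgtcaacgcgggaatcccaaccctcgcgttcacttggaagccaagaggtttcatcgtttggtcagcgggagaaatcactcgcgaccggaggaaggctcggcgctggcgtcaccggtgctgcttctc
Fanca: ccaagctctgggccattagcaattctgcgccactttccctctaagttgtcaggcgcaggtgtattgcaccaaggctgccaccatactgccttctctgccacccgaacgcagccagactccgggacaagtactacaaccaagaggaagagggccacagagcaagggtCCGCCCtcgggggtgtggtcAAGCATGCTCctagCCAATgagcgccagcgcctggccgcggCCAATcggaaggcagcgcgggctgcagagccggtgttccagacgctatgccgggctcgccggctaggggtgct
Polk: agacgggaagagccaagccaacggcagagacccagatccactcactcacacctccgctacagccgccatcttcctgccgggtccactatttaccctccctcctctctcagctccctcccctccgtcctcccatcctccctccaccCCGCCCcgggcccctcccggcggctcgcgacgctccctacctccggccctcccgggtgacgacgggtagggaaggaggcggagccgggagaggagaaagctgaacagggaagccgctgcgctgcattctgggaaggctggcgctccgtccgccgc
Rev1: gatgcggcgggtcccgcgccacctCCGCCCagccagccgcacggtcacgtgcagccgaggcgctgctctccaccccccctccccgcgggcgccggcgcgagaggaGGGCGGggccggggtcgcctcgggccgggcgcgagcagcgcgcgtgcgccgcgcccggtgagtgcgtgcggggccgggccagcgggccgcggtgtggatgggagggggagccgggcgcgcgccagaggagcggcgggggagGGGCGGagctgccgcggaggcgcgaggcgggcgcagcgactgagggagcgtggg

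Fanca carried 2 CCAAT boxes, 50 and 23 bases before the start, a GC box and a p53 half-site 64 bases before the start, whereas Ercc5 carried a single CCAAT box 195 bases before the start and no GC box. In the windows shown, Polk held 1 GC box and Rev1 held 3, and neither had a CCAAT box. Polk has another start site in RefSeq, and its window there, which is not shown, holds a p53 half-site. Windows were at hand for 30 of the 35 members, 33 windows in all. The GC box was in 69.7% of them, the CCAAT box in 48.5% and the ETS core CCGGAA in 36.4%, against 35.7%, 37.4% and 14.9% of the windows of all genes. The p53 half-site was in 9.09% of the members' windows and 8.36% of all windows. A match gives letters in a window and does not show binding.

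Among the genes that recognise lesions, Xpc was higher in every mouse of Day 2 than in any of Day 0, and it is described in full although it was chosen after its values were seen, as were Ddb2, Xpa and Atm. Its levels were 38.4, 32.1, 15.9 and 28.3 CPM in the 4 Day 0 males and 30.5, 23.2, 22.9 and 33.0 CPM in the Day 0 females. On Day 2 they were 46.2, 44.2, 46.0 and 48.8 CPM in males and 44.9, 41.8, 42.2 and 44.0 CPM in females, so the 2 days did not overlap. Over both sexes Xpc rose by a log2 fold change of 0.67 ± 0.15 on Day 2 (edgeR, adjusted p = 0.00427) and 0.53 ± 0.15 on Day 3. On Day 5 males had 38.3, 28.2, 26.3 and 22.9 CPM, within the Day 0 range, and females had 34.4, 34.5, 45.3 and 44.0 CPM, above it, but Xpc passed in neither sex.

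Ddb2, the lesion-binding subunit of the damaged DNA sensor and a p53 target, had a larger fold change but did not pass the edgeR test with Day 0 and 1 later day fitted together, although DESeq2 called it over both sexes on Day 2 and Day 3. Its log2 fold change over both sexes was 1.09 ± 0.47 on Day 2 (adjusted p = 0.0916), and its level was low, from 0 to 5.17 CPM. The Day 0 mice ranged from 0 to 3.53 CPM and the Day 2 mice from 3.39 to 4.98 CPM, so the groups met only at female Day 0 mouse 4. Ddb1, its abundant partner and the adaptor of the Cul4 ubiquitin ligase, rose in males on Day 3 by 0.43 ± 0.11 on the log2 scale, from 212 to 284 CPM, a call lost in 6 of the 8 fits that left out 1 mouse. In females the interval of the Ddb1 difference on Day 3 ran from -0.28 to 0.34 (estimate ± 2 SE). Rad23b passed in none of the comparisons with Day 0 when all mice of the groups compared were fitted, but it did so in females on Day 2 and Day 3 without female Day 0 mouse 4 or with 1 fit over all 8 groups.

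Of the transcription-coupled genes, Uvssa stabilises Ercc6 at stalled polymerase. Day 0 males had 8.85, 7.65, 7.01 and 8.05 CPM and Day 3 males 19.3, 18.4, 18.3 and 15.9 CPM. Day 0 females had 6.10, 5.06, 8.38 and 13.6 CPM and Day 3 females 11.4, 10.0, 9.54 and 10.4 CPM. The male groups were well apart, while the female groups overlapped because female Day 0 mouse 4 was above every Day 3 female. The log2 fold change in males was 1.19 ± 0.13 on Day 3 (adjusted p = 0.00281) and 0.79 ± 0.20 on Day 5, where the call was lost in 5 of the 8 fits that left out 1 mouse, and it was 0.31 ± 0.30 in females on Day 3 (adjusted p = 0.498). On Day 2 males had 13.8, 13.8, 18.2 and 5.00 CPM, and mouse 4 stood below all of the Day 0 males.

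Ercc6, the Cockayne syndrome B translocase that binds the stalled polymerase, rose over both sexes by 0.80 ± 0.27 on Day 2 and 0.97 ± 0.27 on Day 3 on the log2 scale. With 1 mouse left out, the Day 2 call was lost in 10 of 16 fits and that of male Day 3 in 6 of 8, while the Day 3 call over both sexes was kept in all 16. It stood at 15.7 to 17.8 CPM in Day 3 males and at 2.41 to 10.8 CPM in Day 0 males. Ercc8, the Cockayne syndrome A ubiquitin ligase receptor, behaved differently, with 0.11 ± 0.17 on Day 3 (adjusted p = 0.625). Uvssa and Ercc6 thus passed on Day 3 and Ercc8 did not.

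None of the genes that open and verify the helix passed as higher. Xpa, the scaffold that checks the lesion, fell over both sexes, by a log2 fold change of -0.48 ± 0.16 on Day 2 (adjusted p = 0.0284) and -0.43 ± 0.15 on Day 3. Its level in males was 13.5, 16.0, 29.1 and 14.9 CPM on Day 0 and 13.2, 13.0, 12.1 and 10.1 CPM on Day 2. Male Day 0 mouse 3 stood far above the other 3 Day 0 males, and without it the Day 2 call was lost. The Xpa call was lost in 5 of 16 fits on Day 2 and 8 of 16 on Day 3 that left out 1 mouse. The TFIIH helicases Ercc2 and Ercc3 had Day 3 log2 fold changes of -0.044 ± 0.16 and 0.14 ± 0.16, and neither passed on any day in either sex.

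Of the incision nucleases 1 passed. Ercc5, the endonuclease that cuts on the 3′ side, had 14.9, 13.6, 9.05 and 14.0 CPM in Day 0 males and 30.1, 23.5, 21.9 and 19.99 CPM in Day 3 males. In females it had 14.5, 13.0, 10.0 and 19.7 CPM on Day 0 and 34.7, 16.3, 29.6 and 32.5 CPM on Day 3. All Day 3 males were above all Day 0 males, and in females only Day 3 mouse 2 fell inside the Day 0 range. Over both sexes the log2 fold change was 0.86 ± 0.19, 0.91 ± 0.18 and 0.88 ± 0.18 on Day 2, Day 3 and Day 5 (adjusted p = 0.00387, 0.00109 and 0.00618). The 5′ nuclease passed with neither of its subunits: Ercc1 had -0.20 ± 0.17 and Ercc4 0.21 ± 0.16 on Day 3.

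In the crosslink pathway 1 core gene stood out. Fanca, a large subunit of the Fanconi core complex that ubiquitinates the ID pair, had 3.31, 3.10, 2.77 and 1.90 CPM in Day 0 males. Males had 7.64, 7.77, 7.75 and 10.3 CPM on Day 2, 8.05, 7.37, 7.90 and 7.23 CPM on Day 3 and 7.16, 7.58, 10.3 and 8.42 CPM on Day 5. Day 0 females had 3.86, 2.39, 1.22 and 4.32 CPM, against 8.47, 6.84, 6.30 and 6.79 CPM on Day 2 and 6.27, 5.43, 6.05 and 5.24 CPM on Day 3. No treated mouse of Day 2 or Day 3 fell into the Day 0 range of its sex, and the Day 5 females spread from 2.74 to 14.4 CPM. The male log2 fold changes were 1.6 ± 0.24, 1.46 ± 0.20 and 1.65 ± 0.29 (adjusted p = 0.0253, 0.00566 and 0.0104). The Day 2 call in males was lost in 6 of the 8 fits that left out 1 mouse, and the Day 3 and Day 5 calls were kept in all 8.

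Of the other core genes, Fancm, the translocase that anchors the complex to DNA, rose on Day 3 over both sexes, by 0.70 ± 0.22 on the log2 scale (adjusted p = 0.0190), and DESeq2 called it on Day 2 as well. Fance, Fancf and the ubiquitin ligase subunit Fancl passed in no comparison with Day 0. Fancc and Fancg did not pass either, but both DESeq2 and 1 edgeR fit over all 8 groups called Fancc in Day 5 males and Day 3 females and Fancg over both sexes on Day 2, and the 8-group fit called both in Day 2 females. Slx4, the nuclease scaffold, had 20.7, 24.2, 13.7 and 23.9 CPM in Day 0 males and 35.2, 32.7, 37.8 and 31.8 CPM in Day 3 males, with no overlap, and rose by 0.74 ± 0.18 on the log2 scale, a call lost in 5 of the 8 fits that left out 1 mouse. In females Slx4 had 24.0, 16.7, 23.3 and 38.2 CPM on Day 0 and 42.7, 32.7, 38.8 and 40.2 CPM on Day 3, and the overlap came from Day 0 mouse 4. Fancd2, one of the ID pair, stayed at or under 1.90 CPM in every library. None of the recombination genes Brca1, Brca2, Palb2 and Rad51c passed, and their Day 3 log2 fold changes over both sexes lay between -0.099 and 0.42 with SEs of 0.22 to 0.49. The summed level of 12 replication and division genes was 56.8 to 98.1 CPM on Day 0 and 62.4 to 89.7 CPM on Day 3, and 1 of them, Mcm4, rose on Day 3 over both sexes, while with offsets for gene length Mki67 and Cdk1 fell as well. On Day 2 the sum was 75.0 to 139 CPM in males and 69.3 to 83.9 CPM in females. With the offsets Mcm4 and Rrm2 rose on Day 2 over both sexes.

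**Figure D3:**
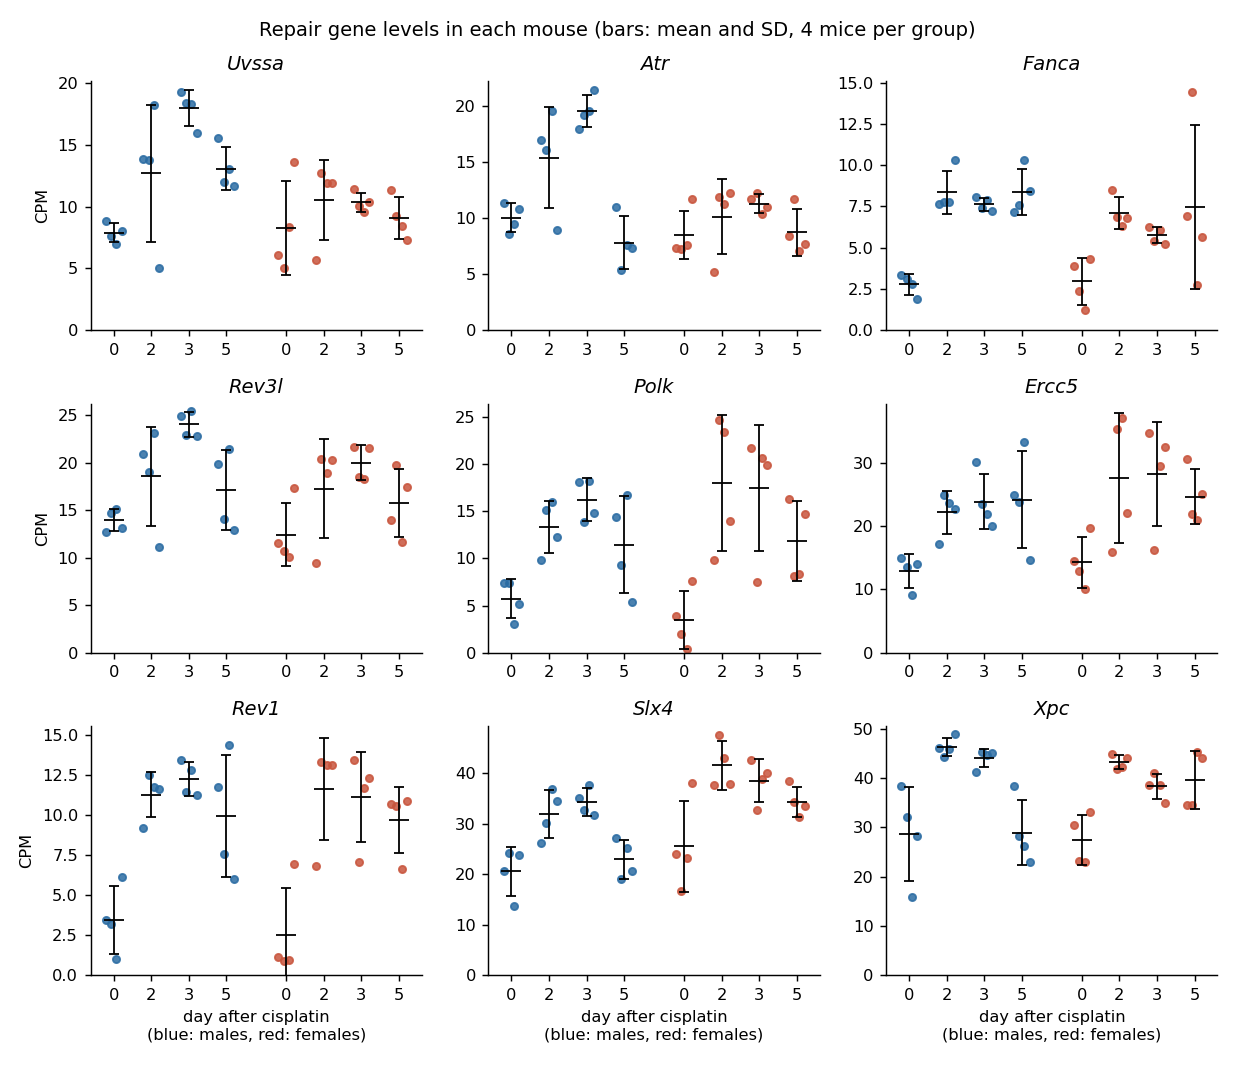
CPM of 9 repair genes in each mouse, by day after cisplatin, males in blue and females in red. Points are mice and bars the mean and SD of 4 mice. Rev1 lies at or below 6.93 CPM in all 8 Day 0 mice and at 6.84 CPM or above in all Day 2 and Day 3 mice.

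The translesion polymerases Rev1 and Polk had the largest fold changes of the members over both sexes on Day 2 and Day 3. Rev1 had 3.42, 3.20, 0.985 and 6.16 CPM in Day 0 males and 1.14, 0.907, 0.980 and 6.93 CPM in Day 0 females. On Day 2 it had 9.22, 12.5, 11.8 and 11.6 CPM in males and 6.84, 13.3, 13.1 and 13.1 CPM in females, and on Day 3 13.4, 11.5, 12.8 and 11.2 CPM in males and 13.5, 7.06, 11.7 and 12.3 CPM in females. Female Day 0 mouse 4 and male Day 0 mouse 4 were the only Day 0 mice above 3.42 CPM, and the female one overlapped Day 2. Over both sexes the log2 fold change was 1.96 ± 0.42, 1.97 ± 0.42 and 1.77 ± 0.44 on the 3 days, or 3.92-fold on Day 3 (adjusted p = 0.00337, 0.00196 and 0.0131).

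Polk, the polymerase that copies past bulky minor-groove adducts, was next. Its Day 0 levels were 7.38, 7.35, 3.07 and 5.12 CPM in males and 3.89, 2.01, 0.441 and 7.61 CPM in females, and its Day 2 levels 9.89, 15.1, 16.0 and 12.3 CPM in males and 9.87, 24.7, 23.4 and 14.0 CPM in females, all above Day 0. On Day 3 males had 18.1, 13.9, 18.2 and 14.8 CPM and females 21.7, 7.50, 20.7 and 19.9 CPM, where female mouse 2 alone overlapped Day 0. The log2 fold change over both sexes was 1.78 ± 0.41 on Day 2 and 1.88 ± 0.40 on Day 3 (adjusted p = 0.00514 and 0.00193). Polh, the polymerase that bypasses intrastrand cisplatin crosslinks, rose by 0.79 ± 0.27 and 0.85 ± 0.27 on the same days, and its Day 2 call was lost in 9 of the 16 fits that left out 1 mouse.

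Of the subunits of polymerase zeta 1 passed. Rev3l, the catalytic subunit, had 12.8, 14.7, 15.2 and 13.2 CPM in Day 0 males and 24.9, 22.9, 25.4 and 22.8 CPM in Day 3 males. In females it had 11.5, 10.8, 10.1 and 17.4 CPM on Day 0 and 21.6, 18.5, 18.3 and 21.5 CPM on Day 3, again with no overlap. Its Day 3 log2 fold change over both sexes was 0.71 ± 0.11, with the smallest adjusted p of the members in that comparison (0.000350). On Day 2 Rev3l did not pass, and male mouse 4 and female mouse 1 had 11.1 and 9.48 CPM. It passed over both sexes on Day 2 without either of them, without female Day 0 mouse 4, and with 1 fit over all 8 groups. Mad2l2, the accessory subunit that links Rev1 to Rev3l, had 0.21 ± 0.20 on Day 3 (adjusted p = 0.417).

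Of the damage sensors, Atr, the kinase of stalled forks and single-stranded DNA, had 11.3, 8.55, 9.42 and 10.8 CPM in Day 0 males and 17.9, 19.1, 19.5 and 21.4 CPM in Day 3 males. Day 0 females had 7.33, 7.23, 7.59 and 11.7 CPM and Day 3 females 11.7, 12.2, 10.3 and 11 CPM. The male groups lay far apart and the female groups met at Day 0 mouse 4. Atr rose in males on Day 3 by 0.96 ± 0.13 on the log2 scale (adjusted p = 0.00563) and had 11, 5.35, 7.57 and 7.30 CPM on Day 5, with no call. Atm, the kinase of double-strand breaks, had 1.17, 1.32, 1.27 and 11.1 CPM in the Day 0 females, where mouse 4 was about as high as the Day 3 males at 10.0 to 11.3 CPM. It did not pass in males on Day 3, with 1.90 ± 0.85 (adjusted p = 0.130). Parp1, which senses strand breaks, did not pass, with a Day 3 log2 fold change over both sexes of 0.045 ± 0.090 and an interval of -0.13 to 0.22.

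Counted without a model, 9 members of the 34 tested lay wholly above Day 0 in Day 2 males and 15 in Day 3 males, beside 12.3% and 20.9% of all genes. In females 5 of 33 did so on Day 2 and 6 of 33 on Day 3, beside 8.66% and 10.1% of all genes. No member differed between Day 3 and Day 2 in either sex, where 0% and 0% of all genes passed. At an unadjusted p under 0.05 there was 1 member in males and 1 in females, beside 8.69% and 3.99% of all genes, and DESeq2 called 0 in both.

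Long genes rose more often than all genes in males and over both sexes, and the median member is longer than the median gene. The 35 members had a median exon length of 5.86 kb, against 4.25 kb for 15045 protein-coding genes that passed the filter. Of the protein-coding genes with at least 8 kb of exon, members left out, 33.2% rose in males on Day 3 and 25.8% and 41.6% rose over both sexes on Day 2 and Day 3. In females few genes of any length passed, and 0.626%, 1.64% and 0.0835% of the long genes rose on Day 2, Day 3 and Day 5, against 0.774%, 1.26% and 0.185% of all genes. The Spearman correlation of log2 fold change with exon length on Day 3 over both sexes was 0.49 across the 34 members and 0.42 across 14758 protein-coding genes, a description in which genes share libraries. Atr, Brca2, Rev3l, Ercc6, Fancm and Atm, with 23.6, 13.6, 13.3, 12.9, 10.4 and 10.3 kb of exon, were the longest members, and Xpa, which fell, has 1.89 kb. Of these long members, Brca2 and Atm did not pass on Day 3 over both sexes, although Atm did so under DESeq2, with 1 fit over all 8 groups and with the replicate block. The levels of some members moved with the long-gene value of each library also inside the groups. Depth and the mitochondrial share differ between these libraries, RNA quality was not measured here, and their part was not tested. After group means were taken out, the correlation of the long-gene value across the 32 libraries was 0.88 with Ercc6, 0.83 with Rev1, 0.82 with Atm and -0.74 with Ercc1. It was 0.41 with Fanca, 0.012 with Fancc and -0.079 with Fancd2.

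**Figure D4:**
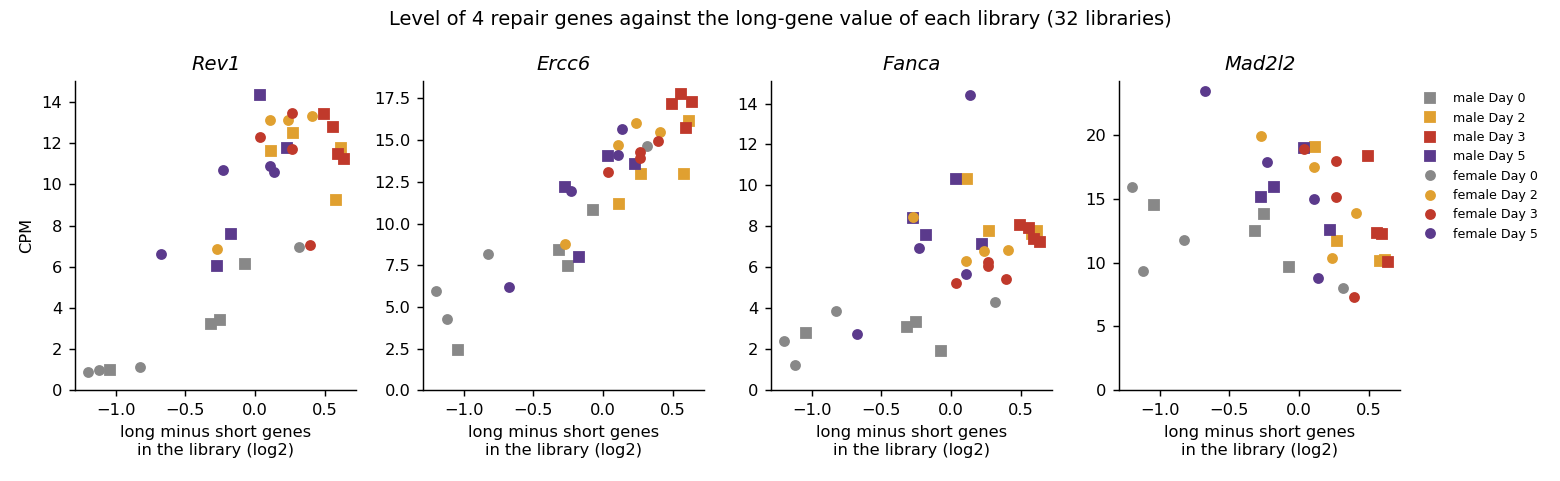
CPM of Rev1, Ercc6, Fanca and Mad2l2 in each library against the log2 difference between long and short genes in that library, squares for males and circles for females, coloured by day. Day 0 libraries lie mostly at the left. Ercc6 is higher in libraries with a higher long-gene value, while Fanca stays at or below 4.32 CPM in the Day 0 libraries, which run from -1.20 to 0.32 on the horizontal axis.

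The fits were therefore repeated with offsets that take out, in each library, the trend of all genes with exon length, an alternative also added after seeing the data. Over both sexes 6 members then rose on Day 2, 8 on Day 3 and 5 on Day 5, beside 8.32%, 11.5% and 7.51% of all genes. In males on Day 3, 5 rose beside 4.87% of all genes. Rev1 kept log2 fold changes of 1.84 ± 0.37, 1.85 ± 0.37 and 1.75 ± 0.39, and Polk 1.65 ± 0.37, 1.75 ± 0.36 and 1.35 ± 0.38. Fanca went from 1.18 ± 0.22 to 0.87 ± 0.19 on Day 3 and still passed, as did Ercc5, Slx4, Xpc, Ercc6 and Polh.

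With the length offsets Ercc6, Polh and Xpa lost their call over both sexes on Day 2, and Atr, Rev3l, Uvssa, Fancm and Xpa lost theirs on Day 3. Atr had 0.19 ± 0.10 (adjusted p = 0.155) and Rev3l 0.26 ± 0.10 (adjusted p = 0.0588) on Day 3. Uvssa had 0.42 ± 0.16 over both sexes (adjusted p = 0.0502) and passed in males, with 0.82 ± 0.12 (adjusted p = 0.0118). Mad2l2 passed on Day 5, with 0.51 ± 0.17. The genes called in both fits on all 3 days were Ercc5, Fanca, Polk and Rev1.

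**Figure D5:**
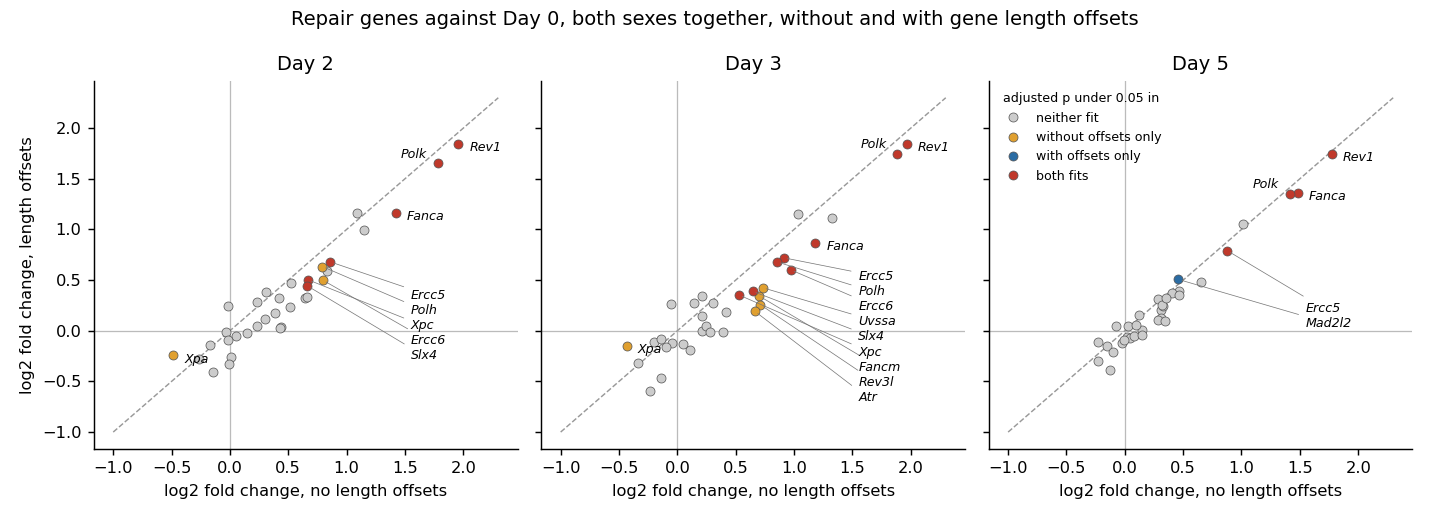
Log2 fold change against Day 0 over both sexes for the repair genes tested, without length offsets on the horizontal axis and with them on the vertical axis, for each day. The dashed line marks equal values, and colours show in which fit a gene passed. Most rising genes lie below the line on Day 2 and Day 3, and Rev1, Polk, Fanca and Ercc5 pass in both fits on each day.

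Between males and females no member passed on 3 of the days (Day 0, Day 2 and Day 5), beside 0.449%, 1.47% and 0.276% of all genes by the edgeR test. With 1 edgeR fit over all 8 groups Fancc passed on Day 0 and Fancf on Day 5, both lower in males, beside 3.22% and 9.69% of all genes. At an unadjusted p under 0.05 there were 2, 3 and 3 members, beside 8.04%, 15% and 20.3% of all genes, and DESeq2 called 1 on each of these days (Fancc, Fancd2 and Fancf). Without the library labelled male Day 5 mouse 1, Fancf was lower in males on Day 5, beside 17% of all genes in either direction. On Day 3, 6 members were higher in males and 0 were lower, beside 10.6% and 10.7% of all genes: Atr, Uvssa, Ercc4, Atm, Fanca and Ercc6. None of them passed with 1 fit over all 8 groups, where 0.988% of all genes did in either direction. Atr differed by 0.76 ± 0.085 and Uvssa by 0.77 ± 0.088 on the log2 scale (adjusted p = 0.000610 and 0.000676), and in both genes every Day 3 male was above every Day 3 female. The Ercc4 difference was 0.34 ± 0.068, and together with Atr and Uvssa it was kept whichever Day 3 mouse was left out, while Atm, Fanca and Ercc6 lost the call in 3, 6 and 7 of the 8 such fits. The count was 3 without male Day 3 mouse 2 or mouse 3, beside 11.1% and 11.6% of all genes in either direction, and without female Day 3 mouse 2 there were 7 higher and 4 lower, beside 34.6%. Ercc1 was called lower in males under DESeq2 (7 higher, 1 lower), without the filter on low counts and with the replicate block (4 higher, 1 lower in each), and in these last fits Ercc6 and Fanca did not pass. The long-gene value was 0.49 to 0.64 in Day 3 males and 0.03 to 0.39 in Day 3 females, and with the length offsets Atr, Uvssa, Ercc4 and Atm still passed and Ddb1 passed too, while Fanca and Ercc6 did not.

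The change from Day 0 was compared between the sexes by the sex by day interaction. It called 0 members on Day 2, Day 3 and Day 5, beside 0%, 0.0114% and 0.243% of all genes, with 1, 4 and 1 members at an unadjusted p under 0.05, beside 4.23%, 7.11% and 15.2%. DESeq2 and 1 edgeR fit over all 8 groups each called 0, 0 and 1, and the 1 was Fancc, a subunit of the Fanconi core complex chosen here after its values were seen. Fancc had 5.64, 6.50, 2.92 and 6.27 CPM in Day 0 males and 12.4, 11.9, 13.8 and 9.12 CPM in Day 0 females, with no overlap. By Day 5 it had 8.56, 6.24, 12.1 and 10.5 CPM in males and 8.0, 8.42, 7.07 and 8.41 CPM in females. The interaction on Day 5 was 1.42 ± 0.39 (edgeR adjusted p = 0.110), and without the library labelled male Day 5 mouse 1 it passed in edgeR, beside 6.74% of all genes. For Uvssa the interaction on Day 3 was 0.86 ± 0.33 with an interval of 0.19 to 1.52 (adjusted p = 0.598).

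The further genes of these pathways, taken from lists of textbook members made with earlier results of these data known, were counted over both sexes. Of 19 further genes of nucleotide excision repair, 0 rose and 7 fell on Day 2, where 11.3% of all genes rose and 16.5% fell, and 3 rose and 7 fell on Day 3, where 16.5% rose and 22.6% fell. The fallen genes were the TFIIH subunits Gtf2h4 and Gtf2h5, the kinase subunits Ccnh and Mnat1, the Xpc partner Cetn2, the replication protein A subunit Rpa3 and the Cul4 ligase ring protein Rbx1, and those that rose on Day 3 were Cul4a, Cul4b and Usp7. Gtf2h5, the smallest TFIIH subunit, fell by 0.89 on the log2 scale on Day 2 (adjusted p = 0.00236), and Rbx1 fell by 0.87. With the length offsets both still passed, at -0.98 ± 0.19 and -1.02 ± 0.22, and Cetn2, Rpa3, Cul4b and Usp7 did not, while Xab2 fell on Day 3.

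Of 18 further crosslink genes tested, 1 rose on Day 2 and 3 rose and 4 fell on Day 3, with Fan1, a crosslink nuclease, at 1.78 ± 0.63 and the core subunit gene Faap100 at -0.61 ± 0.12 on the log2 scale on Day 3. Of 11 further translesion genes, Poln fell on Day 2 (-2.19 ± 0.51), and Day 3 had 2 that rose, the ubiquitin ligases Hltf and Shprh, and 3 that fell, Poln, Pold1 and Pold2. Among base excision and strand break genes, the glycosylases Tdg and Mpg and the ligase Lig3 rose on Day 3, while the polymerase Polb, the scaffold Xrcc1 and the glycosylases Neil1 and Nthl1 fell. Of 6 mismatch genes Msh6 and Msh3 rose on Day 3, and of 13 checkpoint genes Mdc1, Topbp1, Hus1 and Rad50 rose and 0 fell. With the length offsets 11.5% of all genes rose on Day 3, and of the genes just named Hltf, Shprh, Pold2, Neil1, Nthl1, Msh3, Topbp1, Hus1 and Rad50 did not pass, while the checkpoint genes Nbn and Atrip rose and fell, respectively. On Day 5, 0 of these further excision, crosslink and translesion genes rose and 2 fell, Gtf2h2 and Gtf2h4, where 7.6% of all genes rose and 11% fell. With the offsets Pold4 and Pcna rose and Brip1 fell on Day 5 as well.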

How the data were processed

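Total RNA of 32 mouse kidneys was sequenced in paired reads of 150 bp. The authors deposited raw read counts for 54532 genes and FPKM made from the same reads. The submitters' processing notes list HTSeq and DESeq2, and the builds GRCm39 and mm39, but the coordinates in the table were those of GRCm38, which the study's methods name (53462 of 54409 matched gene identifiers had identical positions in a GRCm38 annotation). Aligner and strand setting are not given in the sources used here, so reads of overlapping antisense genes cannot be told apart. Columns were matched to samples by name. Exon length was the deposited gene length.

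For each comparison a quasi-likelihood model (edgeR 4.0.16, R 4.3.3; trimmed mean of M values, filterByExpr, robust dispersions) was fitted to all genes of the groups compared, with Benjamini-Hochberg adjustment and a threshold of 0.05 at any fold change. SEs are the log2 fold change divided by the square root of F, and intervals are ± 2 SE. CPM were scaled over the 32 libraries. The alternatives were DESeq2 1.42.0, its size factors, 1 fit over 8 groups, no filter, mitochondrial genes left out, the replicate block, the study's cut at an absolute log2 fold change of 1.5, each mouse left out and, added after seeing the data, offsets from 20 bins of exon length and fits of both sexes. The length offsets remove the median trend with length in each library. The scripts were tested on simulated data with known fold changes. For male Day 3, edgeR called 171 of 199 changed genes and 9 unchanged ones, and DESeq2 called 184 and 62. Over both sexes on Day 3, edgeR called 173 of 200 changed genes and 2 unchanged ones, and DESeq2 called 178 and 33. The simulated data held no trend with gene length, so removal of such a trend by the offsets was not tested there. The members and lists were chosen with earlier results of these data known. Per-mouse values were given for the 8 members with the smallest adjusted p in the comparisons of 1 sex with Day 0, and further genes named were chosen after their values were seen. Mouse numbers are the replicate numbers of the labels. Of the lists of further repair genes, 2 genes are not reported here.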

Additional observations from a re-analysis of the deposited data

Results flagged for a closer look

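Of 64 sets of 4 mice (8 genes in 8 groups), 9 held a mouse whose gap to the nearest other, divided by the range of the group, exceeded Dixon's 95% critical value, and chance marks about 1 in 20. Female Day 2 mouse 1 was the low one for Uvssa (5.7 CPM), Atr (5.14 CPM), Rev3l (9.48 CPM) and Rev1 (6.84 CPM), and its long-gene value of -0.27 was the lowest of the Day 2 libraries. Female Day 0 mouse 4 was the high one for Atr (11.7 CPM) and Rev1 (6.93 CPM), with a long-gene value of 0.32 against -1.20 to -0.82 in the other Day 0 females. Female Day 5 mouse 3 was low for Rev1 (6.62 CPM), with a long-gene value of -0.67. Fanca was high in male Day 2 mouse 4 (10.3 CPM). Polk was low in female Day 3 mouse 2 (7.5 CPM), whose summed level of Cdkn1a, Mdm2 and Ccng1 was 210 CPM. The part of these library differences in the results was not tested.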

How the results depend on the processing

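Of the members called in each comparison, none changed direction under any alternative. With DESeq2's Wald test the counts were 8 in male Day 2, 6 in male Day 5, 4 in female Day 2 and 8 in female Day 3, beside 18.2%, 28.1%, 12.9% and 21.2% of all genes, and 1 each in the sex comparisons on Day 0, Day 2 and Day 5 and in the Day 5 interaction, beside 2.68%, 5.12%, 7.11% and 3.96%. With 1 fit over all 8 groups they were 6 in male Day 2, beside 12.9%, 10, 10 and 3 in females on the 3 days, beside 21.8%, 23.4% and 10.9%, 1, 0 and 1 between the sexes on Day 0, Day 3 and Day 5, beside 3.22%, 0.988% and 9.69%, 1 in the Day 5 interaction, beside 7.55%, and 16 in both sexes on Day 2, beside 37.2%. With gene length offsets they were 0 and 5 in males on Day 2 and Day 3 and 8 in both sexes on Day 3, beside 0.71%, 11.4% and 32.9%. With the cut on fold change they were 2 and 1 in males on Day 3 and Day 5, 0 between the sexes on Day 3, and 2, 2 and 1 in both sexes, beside 3.72%, 7.53%, 1.93%, 4.87%, 6.46% and 3.55%. With 1 mouse left out the counts ran from 0 to 6, 5 to 13 and 1 to 4 in males, 0 to 12, 0 to 15 and 0 to 4 in females, 6 to 15, 12 to 16 and 3 to 7 in both sexes on the 3 days, 3 to 11 between the sexes on Day 3 (11 without female Day 3 mouse 2), and 0 to 1 between the sexes and in the interaction on Day 5. In the other comparisons no member was called with any mouse left out.

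Mouse numbers carry no pairing in the labels, and deviations from the group means correlated by a median of -0.00023 between mice of equal number (112 pairs) and -0.0022 between others (336 pairs). With the replicate block the members called in males were 0, 1 and 1 on Day 2, Day 3 and Day 5, beside 0.0312%, 0.566% and 13% of all genes.

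Fanci, Fancd2 and Brca1 had under 60 counts in every library, so their changes were poorly resolved at this depth. With 4 mice a group and the spread of the Day 0 females, the female counts changed both with 1 mouse and with the fit.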

Other observations

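Of the 4 treated mice with low damage genes, 3 were also the lowest of their groups for Polk and Ercc5. Male Day 2 mouse 1, with 266 CPM of Cdkn1a, Mdm2 and Ccng1 in sum against 662 to 840 CPM in the other 3 Day 2 males, had 9.89 CPM of Polk and 17.2 CPM of Ercc5, the lowest of its group for both. Female Day 3 mouse 2, with 210 CPM against 1103 to 1246 CPM, had 7.5 CPM of Polk and 16.3 CPM of Ercc5, again the lowest. Male Day 5 mouse 4, with 177 CPM, had 5.33 CPM of Polk and 14.6 CPM of Ercc5, the lowest of its group. Male Day 5 mouse 2, with 266 CPM, had 9.36 CPM of Polk and 23.8 CPM of Ercc5 and was the lowest for neither. Male Day 5 mouse 4 had 8.42 CPM of Fanca, above 2 of the other Day 5 males. These pairs of values were seen in the data and not tested.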
